A study of Danio rerio with 6 samples.

Results

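The genes that encode the proteins of the cytosolic ribosome were compared between the thymi of zebrafish with the genotypes *foxn1*+/+ (wild types) and *foxn1*-/- (mutants). Members were chosen by symbol alone: rpl, rps, rplp or rpsa, followed by a number or nothing and an optional letter or paralogue ending. Kinases of ribosomal protein S6 and mitochondrial ribosomal proteins were left out. The rule found 84 of the 32520 gene identifiers of the count table (29201 of them with a symbol), of which 47 belong to the large and 37 to the small subunit. They form 74 families: 65 members stand alone, and 19 members fall into 9 families with several identifiers. The symbol table gives some zebrafish genes a human symbol, so that rpsa is listed as *rpsa2*, rps4 as *rps4y2* and rpl36a as *rpl36al*. Of the symbols, 4 are each shared by 2 identifiers, among them *rpl5* and *rps26*, which are told apart here by identifier.

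Whole thymi were taken from fish aged 3 months, and polyA RNA was sequenced in 3 libraries per genotype, each from the pooled RNA of 3 fish. The *foxn1* line carries an internal deletion, present in every cell of the mutant fish, and both genotypes carried an *ikzf1*:EGFP transgene, a green fluorescent reporter driven by *ikzf1* sequences. No treatment is named. Each library is thus a pool, and p-values measure the spread between pools. The counts were made on genome build GRCz11.

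A ribosome joins a large subunit, which forms the peptide bond, to a small subunit, which decodes the mRNA. Each holds ribosomal RNA and a set of proteins that are needed in near-equal numbers, and most of these proteins are made from single genes. Their mRNAs begin with a terminal oligopyrimidine (TOP) tract, through which their translation follows the kinase mTOR and the RNA-binding protein LARP1. Growing and dividing cells make many ribosomes, and dividing thymocytes are such cells. In mice, loss of RPL22 blocks the development of alpha-beta T cells, and in humans RPL10 is mutated in T cell leukaemia.

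The libraries held between 31989159 and 42198532 counts. The targeted gene *foxn1* was at 10.3, 9.96 and 9.31 CPM in wild types and at 3.32, 3.47 and 1.77 CPM in mutants, where CPM are counts scaled to a common library total by TMM, edgeR's trimmed mean of M-values. It fell by 1.79 on the log2 scale (SE 0.263, adjusted p = 0.000792). Counts are summed over the gene, so the deleted stretch cannot be read from them. Thymus markers were present in the wild types: *rag1*, needed to cut antigen receptor genes, was at 5150 ± 936 CPM (SD, n = 3) against 243 ± 132 CPM. *psmb11*, the catalytic subunit of the thymoproteasome, was read in wild types and had 0 counts in every mutant library. Among 15 thymic and other epithelial markers this held for *psmb11* only, and not for its paralogue *psmb11b*. Of the 15, 9 were called higher and 5 lower in mutants (all genes 36.2% and 35.9%). All 20 thymocyte marker genes were lower and all 33 contractile muscle marker genes were higher in mutants, and none of either list was at 0 in every library of a genotype. Summed thymocyte markers ranged from 1.28% to 1.61% of counts for the wild-type libraries, against 0.0277% to 0.0747% for the mutant ones. Summed muscle markers ranged from 1.52% to 3.41%, against 15.4% to 21.2%. The 10 genes with the most counts made up 13.8 ± 0.774%, against 27.7 ± 2.01%. Of all 23805 genes tested, 72.1% were called changed.

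Ribosomal protein mRNA took a smaller share of the mutant libraries. In the wild-type libraries the 84 members summed to 5.60%, 5.28% and 4.28% of all counts, and in the mutant libraries to 2.83%, 2.99% and 2.70%. The groups did not overlap. Wild-type replicate 3 had the lowest share of its group and the highest share of muscle markers among the wild types (3.41%). Wild-type replicate 1 was above replicate 2 in both the ribosomal protein share and the muscle marker share (1.96% against 1.52%). Mutant replicate 2 had the highest share of both in its group (2.99% and 21.2%). A relation between these shares was not tested. The mean was 5.05 ± 0.689% against 2.84 ± 0.146%, a difference of -2.21 percentage points and a 1.78-fold lower share in mutants. An exact two-sided permutation test over the libraries gave p = 0.1, the smallest value that 3 against 3 libraries allow. Both subunits were lower: the 47 large subunit genes took 3.00 ± 0.401% against 1.66 ± 0.0915%, and the 37 small subunit genes 2.05 ± 0.288% against 1.18 ± 0.0549%. In bulk tissue, fewer cells of a type and less RNA per cell cannot be told apart.

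Part of the difference in share depended on what it was a share of. With the contractile muscle markers taken out of the total, the members took 5.17 ± 0.663% of what remained in wild types and 3.48 ± 0.303% in mutants. Against the TMM effective library size they took 4.38 ± 0.523% and 3.27 ± 0.192%, a 1.34-fold lower share. Genotypes did not overlap in either case. The part of the thymocyte and muscle RNA in these differences was not tested.

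**Figure D1:**
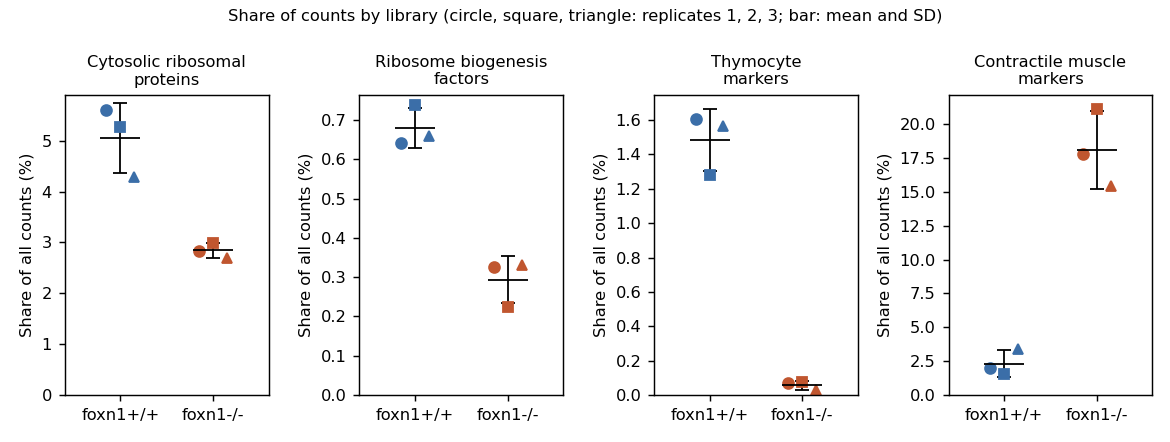
Share of all counts (%, y axis, linear from 0, a separate scale per panel) taken by cytosolic ribosomal proteins, ribosome biogenesis factors, thymocyte markers and contractile muscle markers in each library; points are libraries, black bars mean and SD of 3. Ribosomal proteins range from 4.28% to 5.60% for wild types, above the 2.70% to 2.99% of mutants, while muscle markers range from 1.52% to 3.41% and from 15.4% to 21.2%.

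By gene, most members were moderately lower by TMM, though the number called depended on the scaling and on single libraries. Of the 83 members that passed the filter on low counts, 48 fell, 2 rose and 33 were not called by edgeR's quasi-likelihood test. Over all genes tested, 35.9% were called lower and 36.2% higher. The median log2 fold change of the members was -0.40 (quartiles -0.58 and -0.26) beside a median of 0.02 for all genes (quartiles -0.93 and 1.44), and 77 of 83 members were below 0. *rpl35a* (-0.26, adjusted p = 0.135) and *rps18* (-0.29, adjusted p = 0.0781) were not called, though both were called lower by library size alone (adjusted p = 0.00397 and 0.00243) and *rps18* without wild-type replicate 3 (adjusted p = 0.0225). In normalised CPM the genotypes did not overlap for 53 members that were lower and 4 that were higher, where all genes gave 39.3% lower and 37.8% higher. The large subunit had 26 members lower and 1 higher of 47, and the small subunit 22 lower and 1 higher of 36. In share of all counts, without any scaling, 78 members were lower and 2 higher without overlap (all genes 48.2% and 29.5%). The remaining member had too few counts to be tested.

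How many members were called depended on the scaling and on single libraries. Scaled by library size alone, 78 members were called lower and 2 higher (all genes 45.4% lower, 28.3% higher), with a median of -0.81 beside a median of -0.39 for all genes. Relative to the median of all genes, the members' median was thus -0.43 by library size and -0.42 by TMM. With 1 library left out, 65 members were called lower without wild-type replicate 3 (all genes 32.4%), 29 without mutant replicate 1 (33.0%) and 19 without mutant replicate 3 (32.0%). Without wild-type replicate 1 or 2 the counts were 36 and 37 (32.0% and 33.1%), and without mutant replicate 2 the count was 36 (34.6%). Other tools and filters gave 25 members lower with voom and treat (31.2%), 48 with size factors of DESeq2 (36.1%), 50 with DESeq2 (35.9%), 41 with no filter (29.1%) and 44 with at least 10 counts in every library (36.9%). Of 83 members tested, the 19 without mutant replicate 3 were a smaller share than that of all genes. The 25 with voom and treat and the 29 without mutant replicate 1 were near it, so these alternatives showed little or no excess of lower calls. The members' medians there were -0.30, -0.40 and -0.39, beside 0.04, 0.0009 and 0.04 for all genes. With the contractile muscle markers left out of the table, 47 members were lower and 3 higher (all genes 35.7% and 36.3%). With the replicate number as a block, 48 were lower (33.9%). The call of a decrease held under all 14 alternatives for 18 of the 48 members. This count was not made over all genes, so it has no share to stand beside. Among the alternatives, voom and treat tested for a change beyond a fold change of 1.2. Large subunit genes among the 18 included *rpl3*, both *rpl5* identifiers, *rpl7l1*, *rpl8*, *rpl10*, *rpl23*, *rplp1* and *rplp2l*. Small subunit genes included *rps7*, *rps13*, *rps20*, *rps21*, *rps23*, 1 identifier of *rps26* (ENSDARG00000037071) and *rps27.1*.

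**Figure D2:**
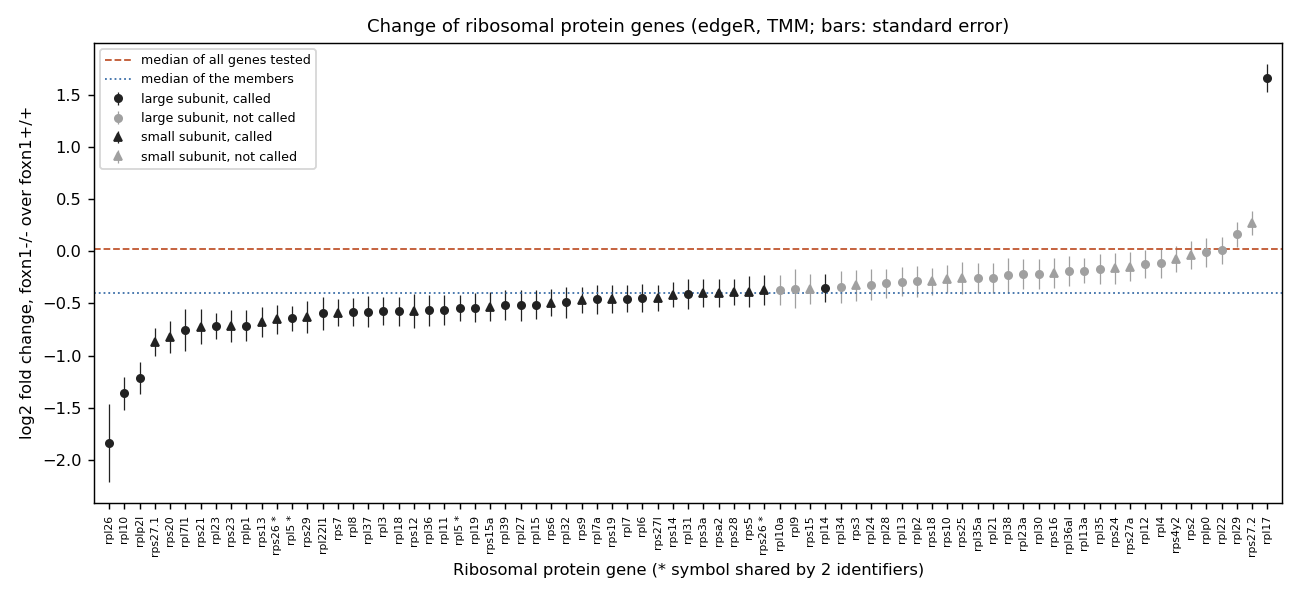
Log2 fold change in mutants over wild types (y axis, edgeR with TMM) of 77 of the 83 tested members in rising order, with approximate standard errors. Circles are large and triangles small subunit genes, black called and grey not called at an adjusted p of 0.05. Most members lie in a narrow band around the members' median of -0.40, below the median of all genes at 0.02. Outside the band lie *rpl17* at 1.66, *rplp2l* at -1.21, *rpl10* at -1.36 and *rpl26* at -1.84, the last resting on few counts.

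The 5 members with the most reads were *rpl3*, *rps2*, *rps20*, *rpl19* and *rpl7a*, which together took 28.8 ± 0.667% of the member counts in wild types and 28.2 ± 0.356% in mutants. *rpl3*, which lines the peptidyl transferase centre, was at 3712, 3470 and 3204 CPM in wild types and at 2426, 2339 and 2205 CPM in mutants. All mutants were below all wild types, and *rpl3* fell by 0.58 on the log2 scale (SE 0.132, adjusted p = 0.00615). *rps20*, of the head of the small subunit, was at 2713, 2444 and 2117 CPM against 1385, 1495 and 1242 CPM. It fell by 0.82 (SE 0.151, adjusted p = 0.00226), again without overlap. *rps2*, at the mRNA entry of the small subunit, was not called. It was at 3136, 2921 and 2580 CPM in wild types and at 2844, 2802 and 2764 CPM in mutants, so that the groups overlapped (log2 fold change -0.04, SE 0.135, adjusted p = 0.808), and relative to the sum of all members its value was 0.38 (adjusted p = 0.111). The sign of the log2 fold change by TMM was positive without any 1 of the mutant replicates, and by library size alone *rps2* was called lower (-0.45, adjusted p = 0.0210). *rpl19* (-0.54, SE 0.140, adjusted p = 0.0102) and *rpl7a* (-0.46, SE 0.140, adjusted p = 0.0205) fell, but neither was called without mutant replicate 3 (adjusted p = 0.0664 and 0.121). *rpl7a* was not called with voom and treat either (adjusted p = 0.105), and among the sets of 5 libraries *rpl7a* was called only without wild-type replicate 3.

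The members were next compared with each other. Counts were refitted across all genes with the summed member counts of a library as its size, so that a value of 0 means a gene moved with the ribosomal protein pool. Of the 83 members, 65 lay within 0.3 and 75 within 0.5 of 0 on the log2 scale. The test called 6 members higher and 4 lower than the pool and 73 not (all genes 42.9% higher, 22.5% lower). Shares of the member sum varied less between replicates than CPM, but dividing by the sum in itself removes variation that the members share. Over the 80 members with a mean of at least 10 CPM, the median coefficient of variation was 14.0% in wild types and 7.21% in mutants for CPM, and 2.88% and 2.68% for the share of the member sum. In share of the member sum, 30 of the 83 members were higher and 28 lower without overlap, beside 45.3% and 27.0% of all genes. The large subunit held 59.3 ± 0.166% of the member counts in wild types and 58.5 ± 0.283% in mutants. Across these 80 members the log2 fold change by TMM showed little relation to the level (r = -0.09 over genes, which share the same 6 libraries).

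The member that departed furthest was *rpl17* (ENSDARG00000057556), a large subunit protein near the exit of the peptide tunnel. Wild types had 13949, 8999 and 10404 counts on it, and mutants 29262, 34479 and 28759. In CPM these were 290, 239 and 278 against 853, 928 and 769. Every mutant was far above every wild type, in the opposite direction to most other members. *rpl17* rose by 1.66 on the log2 scale (SE 0.136, adjusted p = 7.34e-05), from 269 ± 26.5 to 850 ± 79.5 CPM. Its share of the member counts was 0.619 ± 0.0988% in wild types and 2.60 ± 0.123% in mutants, a 4.19-fold higher share. The call held under every alternative. In RefSeq annotation of the assembly GRCz12tu, a different build from that of the counts, no other protein-coding gene overlaps *rpl17*. Without *rpl17* the members summed to 5.02 ± 0.689% and 2.77 ± 0.139% of all counts.

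*rpl10* (ENSDARG00000025581) fell furthest among members with at least 10 CPM. Its protein joins the large subunit last, in the cytoplasm, where it completes the site that holds the tRNAs. It was at 1175, 1084 and 924 CPM in wild types and at 360, 474 and 404 CPM in mutants. The genotypes lay far apart, at 1061 ± 127 against 413 ± 57.2 CPM. *rpl10* fell by 1.36 on the log2 scale (SE 0.158, adjusted p = 0.000267). Its share of the member counts was nearly constant in wild types, at 2.423%, 2.417% and 2.420%, and was 1.07%, 1.40% and 1.32% in mutants. Relative to the pool it fell by 0.94 (SE 0.188, adjusted p = 0.00200), and the call held under all alternatives.

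The proteins of the stalk, which recruits elongation factors to the large subunit, differed in their calls. These genes were taken up after their values were seen, except the pair *rplp2* and *rplp2l*. *rplp2l*, a paralogue of *rplp2*, was at 446, 403 and 310 CPM in wild types and at 170, 174 and 156 CPM in mutants. It fell by 1.21 (SE 0.155, adjusted p = 0.000415), and by 0.78 relative to the pool (adjusted p = 0.00227). *rplp1* was at 1528, 1403 and 1150 CPM against 844, 881 and 765 CPM, also without overlap (log2 fold change -0.71, SE 0.149, adjusted p = 0.00398). *rplp2* itself was at 401, 416 and 322 CPM against 306, 353 and 272 CPM and overlapped between genotypes (-0.29, SE 0.153, adjusted p = 0.123). It was called lower by library size alone (-0.70, adjusted p = 0.00609) and without wild-type replicate 3 (-0.43, adjusted p = 0.0434). *rplp0*, the base of the stalk, was at 888 ± 110 CPM in wild types and 881 ± 67.0 CPM in mutants (-0.01, SE 0.140, adjusted p = 0.946). *rpl12*, which binds beside it, was at 182 ± 26.6 and 167 ± 11.7 CPM (-0.12, adjusted p = 0.444). In RefSeq (GRCz12tu) *rplp0* overlaps *gusb*.

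**Figure D3:**
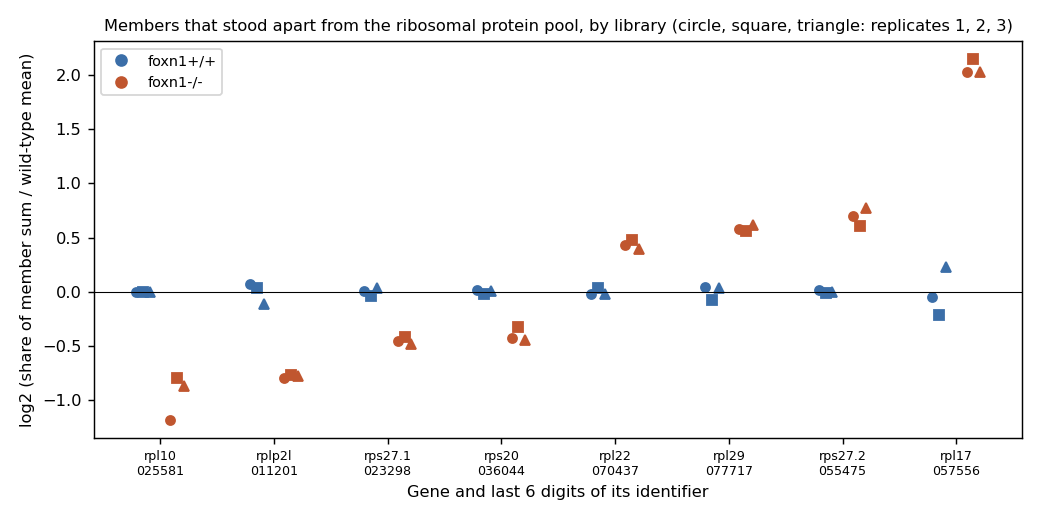
Share of the member counts in each library, as log2 ratio to the wild-type mean (y axis), for 8 of the 10 members lowest or highest relative to the pool among those with at least 10 CPM and no overlap; blue points are wild types and orange points mutants. Mutant points of *rpl17* lie near 2 and those of *rpl10* and *rplp2l* well below 0. The scale itself centres the wild-type points near 0, and the members were chosen for not overlapping, so the gap between genotypes follows from the choice.

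Other members higher than the pool included *rps27.2* (0.70, adjusted p = 0.00303), *rpl29* (0.59, adjusted p = 0.00716) and *rpl22* (0.43, adjusted p = 0.0292). These 3 were not called by TMM. *rpl29*, of the large subunit, shows the pattern: it was at 91.0, 77.3 and 71.3 CPM in wild types and at 92.1, 91.2 and 85.0 CPM in mutants, overlapping in level, yet took 0.172% to 0.188% of the member counts in wild types and 0.269% to 0.279% in mutants. By TMM their log2 fold changes ran from 0.01 to 0.27, and by library size alone all 3 were below 0 and *rpl22* was called lower (-0.40, adjusted p = 0.0299). *rps27.1* was lower than the pool (-0.45, adjusted p = 0.0412). The calls of *rpl22* and *rps27.1* were the least firm: without mutant replicate 1 their adjusted p were 0.102 and 0.140, without wild-type replicate 1 they were 0.0803 and 0.102, and only without wild-type replicate 3 did both hold among the sets of 5 libraries.

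The call of *rpl26* (ENSDARG00000102317) rested on few counts: 23, 19 and 12 for wild types, against 4, 5 and 4 for mutants. The filter asked for 3 libraries, and *rpl26* met it in wild types alone. It is among the 48 members called lower by TMM (log2 fold change -1.84) and among the 4 called lower than the pool (-1.41). Because the wild types alone let it into the test, these calls were favoured in advance and do not stand as support for a decrease. How reads shared by near-identical copies were counted is not known, so such values are uncertain.

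Several families hold more than 1 gene, and the balance within them was compared as the percentage of the pair's counts on the second gene. Of 11 pairs, 10 had counts enough to compare. In 8 pairs the genotypes did not overlap, and 2 overlapped. Ratios of other gene pairs were not computed. For single genes in normalised CPM, 37.8% of all genes were higher and 39.3% lower without overlap. The count of pairs is thus near what single genes gave and does not set these families apart. Each of the 8 had an exact two-sided permutation p = 0.1, the smallest possible, and an adjusted p = 0.125 over the 10 pairs by the Benjamini-Hochberg method, so none passed 0.05. The 3 pairs within the rps27 family share their members.

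The pair with a known role in T cells was *rpl22* and *rpl22l1*. *rpl22* was at 122, 117 and 95.6 CPM in wild types and at 116, 120 and 102 CPM in mutants, with overlap (log2 fold change 0.01, SE 0.129, adjusted p = 0.943). *rpl22l1*, its paralogue, was at 33.0, 25.1 and 23.1 CPM against 18.1, 18.7 and 16.8 CPM. All mutants were below all wild types, and *rpl22l1* fell by 0.60 (SE 0.154, adjusted p = 0.0104), though not without mutant replicate 3 or with voom and treat (adjusted p = 0.0634 and 0.0601). It made up 21.3%, 17.7% and 19.4% of the pair in wild types and 13.6%, 13.5% and 14.2% in mutants. The ratio was thus 1.51-fold lower in mutants. In RefSeq (GRCz12tu) *rpl22* overlaps the gene *rnf207a*, and reads on both could not be told apart if strand was not used.

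In the rps27 family, which encodes a zinc finger protein of the small subunit, the balance of the copies did not overlap between genotypes. *rps27.1* was at 982, 883 and 792 CPM in wild types and at 499, 514 and 441 CPM in mutants, a fall by 0.87 (SE 0.134, adjusted p = 0.000977). *rps27.2* was at 79.4, 72.2 and 61.6 CPM against 89.0, 83.7 and 84.6 CPM, higher in each mutant but not called (0.27, SE 0.119, adjusted p = 0.0740). It made up 7.48%, 7.57% and 7.21% of this pair in wild types and 15.1%, 14.0% and 16.1% in mutants, a 2.21-fold higher ratio. *rps27l* was at 80.7 ± 11.4 against 59.3 ± 2.87 CPM (-0.44, SE 0.125, adjusted p = 0.0149) and lost its call without mutant replicate 1 or 3 and with voom and treat (adjusted p = 0.0611, 0.0947 and 0.141). Of the counts on *rps27.2* and *rps27l*, *rps27l* made up 53.1 ± 4.85% in wild types and 40.9 ± 1.41% in mutants. In RefSeq (GRCz12tu) *rps27.2* overlaps *rab13*.

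*rplp2l* made up 52.6%, 49.2% and 49.1% of its pair with *rplp2* in wild types and 35.7%, 33.1% and 36.4% in mutants. Counts on both were near equal in wild types, and *rplp2l* had fewer than *rplp2* in every mutant. The pair of *rps26* identifiers moved less, from 41.6 ± 0.0581% to 46.3 ± 1.46% on ENSDARG00000030408. The *rpl5* pair (32.6 ± 1.27% and 31.2 ± 0.657% on ENSDARG00000020197) and the *rpl7* pair (7.73 ± 0.785% and 6.37 ± 1.68% on *rpl7l1*) overlapped. *rpl7* fell by 0.45 (adjusted p = 0.0151), though not without mutant replicate 1 or 3 or with voom and treat, and *rpl7l1*, its nucleolar paralogue, fell by 0.75 (adjusted p = 0.0122). Of the *rps26* pair, ENSDARG00000037071 fell by 0.65 (adjusted p = 0.00390) and ENSDARG00000030408 by 0.37 (adjusted p = 0.0477). ENSDARG00000030408 lost its call in 9 of the 14 alternatives, voom and treat (adjusted p = 0.310) and no filter (adjusted p = 0.0841) among them. With 1 library left out it held only without wild-type replicate 3.

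**Figure D4:**
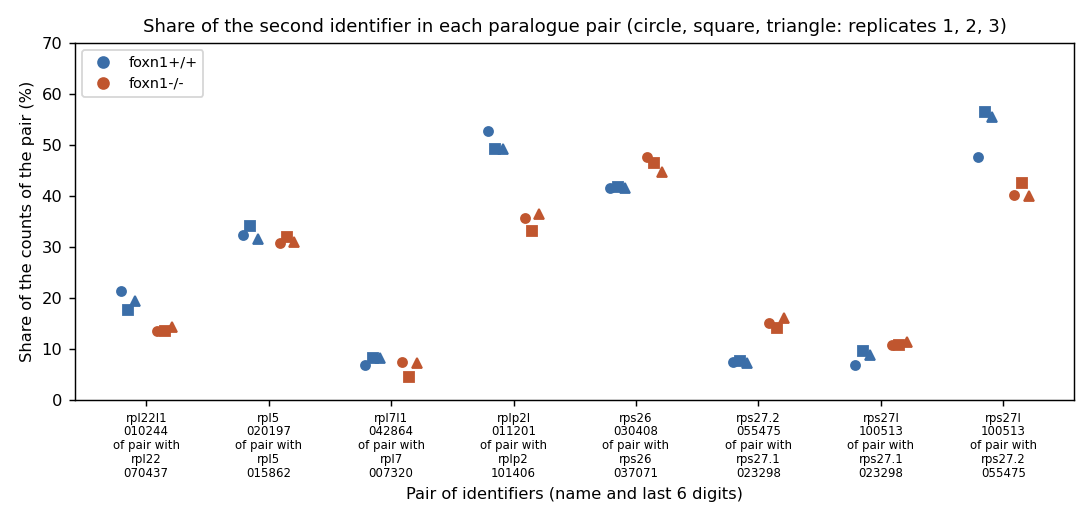
Percentage of a pair's counts on the second gene (y axis, linear from 0) in each library for 8 of the pairs compared; blue points are wild types and orange points mutants. *rps27.2* beside *rps27.1* ranges from 7.21% to 7.57% for wild types and from 14.0% to 16.1% for mutants, and *rplp2l* from 49.1% to 52.6% and from 33.1% to 36.4%.

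Members with further roles known from disease fell with the pool. RPL5 and RPL11 bind MDM2 when ribosome assembly fails. Both *rpl5* identifiers fell, ENSDARG00000015862 by 0.54 (SE 0.122, adjusted p = 0.00550) and ENSDARG00000020197 by 0.64 (SE 0.120, adjusted p = 0.00243), and held under every alternative. *rpl11* was at 599, 561 and 469 CPM in wild types and at 381, 401 and 324 CPM in mutants (-0.56, SE 0.144, adjusted p = 0.0102). *rps19*, mutated in Diamond-Blackfan anaemia, was at 446 ± 58.4 against 325 ± 13.9 CPM (-0.46, adjusted p = 0.0156). *rps14*, lost in the human 5q- syndrome, was at 176 ± 21.6 against 132 ± 5.52 CPM (-0.42, adjusted p = 0.0170). *rpsa2*, whose human counterpart RPSA is mutated in congenital asplenia, was at 1333 ± 143 against 1010 ± 36.6 CPM (-0.40, adjusted p = 0.0272). *rps6*, the target of S6 kinase, was at 856 ± 88.0 against 607 ± 42.3 CPM (-0.49, adjusted p = 0.0113). Genotypes did not overlap for any of them, where 39.3% of all genes were lower without overlap and 35.9% were called lower. Without mutant replicate 3 the calls of *rpl11*, *rps19*, *rps14*, *rpsa2* and *rps6* were lost (adjusted p from 0.0664 to 0.148). Those of *rps19* and *rps14* were also lost without mutant replicate 1 or 2 (adjusted p from 0.0540 to 0.0696), and *rpsa2* lost its call in 8 of the 14 alternatives, the replicate block among them (adjusted p = 0.0506), and with 1 library left out held only without wild-type replicate 3. With voom and treat *rps19*, *rps14*, *rpsa2* and *rps6* were not called (adjusted p from 0.0643 to 0.183). Relative to the pool, these 7 identifiers lay between -0.22 and 0.02, and none was called.

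The 4 ribosomal protein genes outside the symbol rule all fell, where 35.9% of all genes were called lower. *fau*, whose product is cut to the small subunit protein S30, was at 215 ± 33.2 against 146 ± 10.4 CPM (log2 fold change -0.55, adjusted p = 0.00972). Its paralogue *faub* fell by 0.77 (adjusted p = 0.000880). *rack1*, a scaffold on the small subunit, was at 652 ± 76.8 against 433 ± 23.7 CPM (-0.59, adjusted p = 0.00523). Without mutant replicate 3, *fau* was not called (adjusted p = 0.0671, and 0.0586 with voom and treat). Relative to the pool none of the 4 was called, at -0.35 to -0.13.

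Genes of the machinery that makes ribosomes were lower as well. Of 69 ribosome biogenesis factors, 53 fell (76.8%), 2 rose (2.9%) and 14 were not called, beside 35.9% lower and 36.2% higher of all genes. Their median was -0.68, and their summed share of counts was 0.680 ± 0.0509% in wild types and 0.293 ± 0.0597% in mutants. *nop56*, a core protein of the box C/D particles that methylate ribosomal RNA, was at 404 ± 36.4 against 169 ± 27.3 CPM (-1.26, adjusted p = 0.000336). Its partner *nop58* was at 352 ± 49.4 against 177 ± 51.5 CPM (adjusted p = 0.00713), and *ncl*, the nucleolar protein nucleolin, fell by 0.99 (adjusted p = 0.00842). The 2 that rose, named after their values were seen, were *noc2l* (0.84, adjusted p = 0.00295) and *pno1* (0.59, adjusted p = 0.00127). All 13 genes of RNA polymerase I and its factors, which transcribe ribosomal RNA, fell (35.9% of all genes), with a median of -0.83. Among them *ubtf* was at 118 ± 7.93 against 72.1 ± 1.69 CPM (-0.71, adjusted p = 0.000574), *ubtfl* fell by 1.07 (adjusted p = 0.000176) and *polr1a* by 0.57 (adjusted p = 0.0174, but 0.0577 without mutant replicate 3 and 0.0676 with voom and treat). Relative to the ribosomal protein pool, 13 biogenesis factors and 4 polymerase I genes were called lower and 3 and 0 higher. The lower calls were 18.8% and 30.8% of these lists, beside 22.5% of all genes lower and 42.9% higher in that fit. Proliferation markers, all 18 of which were lower, took 0.463 ± 0.0170% of counts in wild types and 0.0512 ± 0.00455% in mutants, and their part in these differences was not tested.

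Mitochondrial ribosomal proteins, which serve a separate ribosome, had 35 of 75 members lower (46.7%) and 3 higher (4.0%), beside 35.9% and 36.2% of all genes, with a median of -0.34. *mrps18b* was at 83.3 ± 3.63 against 44.7 ± 2.93 CPM (-0.90, adjusted p = 0.000217) and *mrps30* at 74.4 ± 2.59 against 39.8 ± 2.62 CPM (-0.90, adjusted p = 0.000208). *mrpl12* was lower in every mutant than in any wild type but was not called (-0.38, adjusted p = 0.0989), except by library size alone (-0.79, adjusted p = 0.00570).

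Of 35 translation factors and other TOP mRNAs, 11 rose, 11 fell and 13 were not called, with a median of -0.06. These shares, 31.4% each way, were near those of all genes (36.2% higher, 35.9% lower). *eef1a1l1*, an elongation factor that delivers tRNAs, was at 2841, 2634 and 2499 CPM in wild types and at 2692, 2575 and 2367 CPM in mutants (-0.06, SE 0.132, adjusted p = 0.683), and its sign was positive without mutant replicate 3. By library size alone *eef1a1l1* was called lower (-0.47, adjusted p = 0.0127). *tpt1* was at 1027 ± 81.8 against 1137 ± 90.9 CPM (0.15, adjusted p = 0.335). *pabpc1a*, a poly(A)-binding protein, fell by 0.42 (adjusted p = 0.0184) but was not called without any 1 mutant replicate (adjusted p from 0.0545 to 0.0735) or with voom and treat (0.115). Genes with larger changes, picked after their values were seen, were *pabpc1b*, which rose by 1.67 (adjusted p = 8.69e-05), and *nap1l1*, a histone chaperone, which fell by 1.89 (adjusted p = 3.69e-05).

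A list of 27 genes drawn up for the regulation of mTOR and TOP mRNA translation also held *myc*, *mycn* and *rps6ka1*. Of the 27, 12 fell, 7 rose and 8 were not called, with a median of -0.29. These shares, 44.4% lower and 25.9% higher, lie beside 35.9% and 36.2% of all genes. *larp1*, which holds TOP mRNAs back from translation when mTOR is off, was at 4.49, 4.33 and 3.36 CPM in wild types and at 1.22, 0.296 and 0.936 CPM in mutants. It fell by 2.31 (SE 0.461, adjusted p = 0.00329). *mtor* was at 51.7, 44.1 and 58.3 CPM against 30.2, 29.2 and 27.7 CPM, a fall by 0.82 (SE 0.127, adjusted p = 0.000992). Both were lower in every mutant than in any wild type. *rps6ka1*, a kinase of the RSK family, fell by 2.36 (adjusted p = 3.91e-05) and *larp4ab* by 0.92 (adjusted p = 0.00459). *eif4ebp2*, which restrains cap-dependent translation, was at 296 ± 25.1 against 229 ± 14.4 CPM (-0.37, adjusted p = 0.0213), and was not called without any 1 mutant replicate (adjusted p from 0.0570 to 0.0811) or with voom and treat (0.225).

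**Figure D5:**
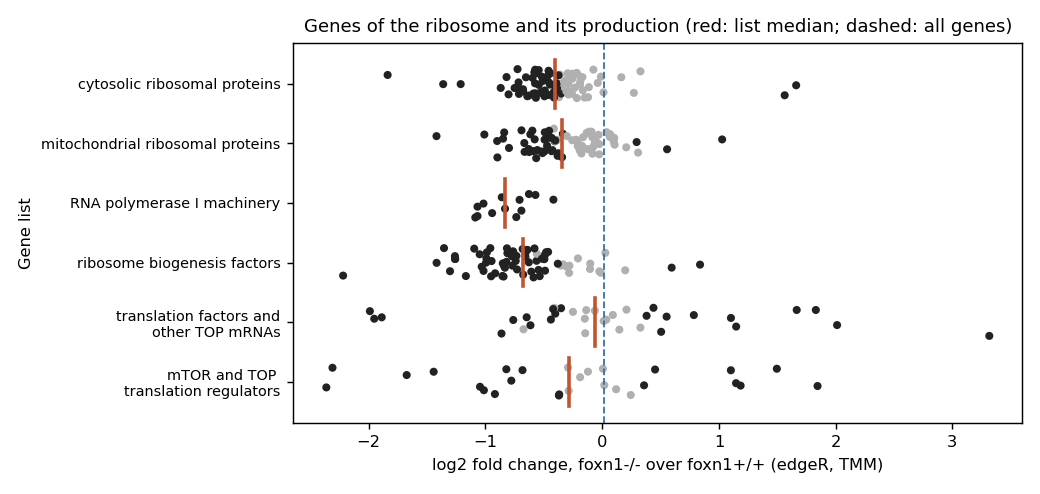
Log2 fold change in mutants over wild types (x axis, edgeR with TMM) of the tested genes of 6 lists (y axis; vertical scatter within a list is arbitrary); black points were called and grey points not called, red bars are list medians and the dashed line is the median of all genes, 0.02. Medians are -0.40 for cytosolic and -0.34 for mitochondrial ribosomal proteins, -0.83 for RNA polymerase I, -0.68 for biogenesis factors, -0.06 for translation factors and -0.29 for mTOR and TOP regulators.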

How the data were processed

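RNA of whole thymi was sequenced in 3 libraries per genotype, each from 3 pooled fish; groups and replicate numbers came from the sample labels. The authors trimmed reads with Trim Galore 0.4.3.1, aligned them to GRCz11 with HISAT2 2.1.0, counted them with featureCounts 1.6.1.0 and deposited raw counts per Ensembl gene, per the submitters' processing notes. The labels name the NEBNext Low Input kit and the methods an Ultra RNA kit. Annotation release, strand setting and handling of multiply aligned reads are not given in the sources used here, so values of overlapping genes and near-identical paralogues are uncertain.

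A gene entered the test when at least 3 libraries had more than 5 counts on it (23805 genes). Genotypes were compared with the two-sided quasi-likelihood test of edgeR 4.0.16 (robust, TMM) in R 4.3.3 with Benjamini-Hochberg adjustment over all genes and a threshold of 0.05; the same test was run with the summed member counts as library size. SE is an approximate standard error, taken as the size of the log2 fold change divided by the square root of the quasi-likelihood F statistic. CPM are TMM-scaled. Shares and ratios were compared with exact permutation tests. The code of the tests was run on simulated counts in which most genes did not change. Such counts cannot show how the tests behave here, where 72.1% of genes were called changed. Alternatives were size factors of DESeq2 1.42.0 in edgeR, library size alone, DESeq2, voom and treat (fold change of 1.2, limma 3.58.1), filters of none and of a minimum of 10 counts per library, a block for the replicate number, omission of 1 library at a time and, chosen after seeing the data, leaving out the contractile muscle markers. For the pool, paralogues or the most read member were also left out of the sum.

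Named genes were *foxn1*; the 5 most read members; the 5 members with the largest and the 5 with the smallest log2 fold change, by TMM and relative to the sum, among those with at least 10 CPM and no overlap between genotypes; members of families with several identifiers; members with known roles; the 3 most read genes of each list (those of marker lists are mostly not printed); the ribosomal proteins outside the rule; and *larp1*, *mtor* and *mdm2*. Results of some genes that the rule names are not reported here or drawn by name. Members and lists were chosen with earlier results of these data known. Of the other lists, 7 of 8 erythrocyte, 10 of 10 connective tissue and 9 of 15 thymic and other epithelial markers were called higher in mutants (36.2% of all genes). Lower, beside 35.9% of all genes, were 1 of 8 erythrocyte markers and 5 of 15 thymic and other epithelial markers, *foxn1* among the 5. Positions of neighbouring genes came from RefSeq (GRCz12tu), where 76 names matched. There, 13 genes overlapped another protein-coding gene, *rplp0*, *rps18* and *rps20* among them, and their values are uncertain if strand was not used. Replicates differed beyond sampling noise, so none was a copy. Depth ranged from 31989159 to 42198532 counts.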

Additional observations from a re-analysis of the deposited data

How the results depend on the processing

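The counts of calls and medians moved to differing degrees. The 48 members called lower (all genes 35.9%) became 78 by library size alone (45.4%) and 25 with voom and treat (31.2%). With 1 library left out they were between 19 and 65 (all genes between 32.0% and 34.6%). The 19, without mutant replicate 3, were a smaller share of the members than that of all genes. The count called higher was 2 or 3 under every alternative, where all genes gave 36.2% in the main fit. DESeq2 called 50 members lower and 2 higher (35.9% and 36.0%). No filter gave 41 of 84 tested lower (29.1%), and at least 10 counts in every library gave 44 of 81 (36.9%). The members' median moved to -0.81 by library size alone and ranged from -0.53 to -0.30 with 1 library left out. The difference in share of counts, -2.21 points, was -1.69 points without muscle markers, -1.11 points on the TMM effective library size and between -2.60 and -1.94 points with 1 library left out. Relative to the pool, 4 members lower (all genes 22.5%) became between 2 and 3 with 1 library left out, and 6 higher (42.9%) became between 5 and 7. The cause of these shifts was not tested, except that library size alone moved the median of all genes to -0.39 and the share of higher calls from 50.2% to 38.4%.

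Signs turned for 6 genes. By library size alone the log2 fold changes were -0.14 for *rps27.2*, -0.24 for *rpl29*, -0.40 for *rpl22* and -0.26 for *tpt1*. With 1 library left out, *rps2* ranged from -0.15 to 0.046 (0.00040, 0.021 and 0.046 without mutant replicate 1, 2 and 3), *rpl22* from -0.12 without wild-type replicate 3 to 0.15, and *eef1a1l1* from -0.14 to 0.062 without mutant replicate 3. Of 79 single-gene results, 49 kept direction and call under every alternative run, and 20 lost their call under at least 1.

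Deviations from the genotype mean correlated at 0.13, -0.04 and -0.01 for same-numbered libraries, and from -0.10 to 0.095 for the others. With 3 libraries per genotype such values cannot decide whether replicate numbers pair the libraries. With the replicate number as a block, 48 members were lower and 3 higher, the median was -0.40, and 6 members were higher and 4 lower than the pool; 16308 genes were called in all, against 17165. At these depths *rpl26* had 67 counts over all libraries, which limits what can be said of it.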

Other observations

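Stress-related genes outside the lists above moved in both directions by edgeR. Of the 14 on their list, 8 were called lower and 4 higher, beside 35.9% and 36.2% of all genes. The genes printed here are only some of the 14. *mdm2*, the ubiquitin ligase that RPL5 and RPL11 bind, was at 63.8, 62.1 and 58.1 CPM against 29.7, 31.4 and 33.9 CPM, and fell by 0.96 (SE 0.101, adjusted p = 0.000184). *ccng1*, which encodes cyclin G1, went the other way, from 276, 377 and 298 CPM to 683, 603 and 636 CPM, and rose by 1.02 (adjusted p = 0.000802). The genotypes did not overlap for either. *sesn1*, a stress-induced inhibitor of mTOR signalling, fell by 0.96 (adjusted p = 0.0205) with overlap, and was not called in 4 of the 6 sets with 1 library left out or with the replicate block (adjusted p from 0.0557 to 0.0829).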
